A study of Mus musculus with 2 samples.

Results

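The genes described here encode the proteasome and the machinery that presents its peptides, compared between luminal cells of the mouse mammary gland with high Venus fluorescence (Venus High) and those with low or absent fluorescence (Venus Low). They were chosen by name: every gene called Psma to Psmg with a number, every gene with an H2 name, and Tap1, Tap2, Tapbp, Tapbpl, B2m, Erap1, Calr, Canx, Cd74, Ciita and Nlrc5. Of the 13869 genes in the value table, 73 met this rule, 45 of them proteasome genes and 28 others, which are genes of antigen presentation except for H2-Ke6, a member by its name only. Glands of 3 adult virgin females, 5 months old, Tbx3-Venus-KI and on the FVB background, gave the pooled epithelial cells, and 200000 cells of each luminal population were sorted, the RNA of each going on 1 array. All mice carried 1 Tbx3 allele in which the sequence of Venus, a yellow fluorescent protein, takes the place of Tbx3, so both populations are heterozygous for Tbx3 and differ in the activity of its promoter. Dead cells, CD45-positive leukocytes and stromal cells were gated out, and luminal cells were taken by CD24 and CD49f. Both samples come from the same pool and there were no repeats, so the spread between animals is unknown and no p-value can be given.

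The proteasome is a barrel-shaped protease that degrades ubiquitin-tagged proteins. Its 20S core is built of alpha rings around beta rings, and the 19S cap recognizes and unfolds the substrates. In the immunoproteasome, interferon-inducible catalytic subunits (Psmb8, Psmb9 and Psmb10) replace the constitutive ones (Psmb5, Psmb6 and Psmb7, in that order), which changes the peptides that are cut. TAP, a transporter made of Tap1 and Tap2, carries such peptides into the endoplasmic reticulum, where they are loaded onto class I molecules of the major histocompatibility complex, which display them to T cells. Class II molecules present peptides from endosomes and are found mainly on professional antigen-presenting cells.

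The table holds log2 array signals with a floor at a signal of 10, and of its 29338 probe sets 0 were below their Venus Low value in the Venus High population. Probe sets that fell there are therefore not analysed here. Every difference below is at or above 0 by construction, and only its size carries information. A gene with a fallen probe set could still be represented by another that did not fall. Where the table holds several probe sets of a gene, the value is that of the one with the highest mean over the 2 arrays. Of the 13869 genes, 3847 reached a signal of 100 on at least 1 array, and their median difference, Venus High minus Venus Low, was 0.46 on the log2 scale, with quartiles at 0.21 and 0.91. Each difference is to be read against that median. The median is of a table without fallen probe sets, so lying near it does not show that a gene was unchanged. Centring both arrays on their medians lowers every difference by 0.66. In a table without fallen probe sets the Venus High median cannot be the lower one, so this shift cannot show how the arrays were scaled. A difference smaller than 0.66 has no settled direction. Among 1062 genes with several probe sets at that signal, the pooled SD between probe sets was 0.31, which describes these arrays and not animals. It is taken over probe sets that did not fall, so it can understate the disagreement between probe sets. Tbx3, which checks the sort, had log2 signals of 8.72 (Venus High) and 3.62 (Venus Low). Of 7 hormone-sensing markers, 5 were in the table, and Prlr and Ly6a (Sca1) were not. All 5, Tbx3, Esr1 and Pgr among them, were higher in the Venus High population by 4-fold or more. Only the size of these differences carries information. Of 7 markers of alveolar progenitor cells, 0 were in the table.

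Psmb9 and Psmb8, catalytic subunits of the immunoproteasome, and Tap2, a chain of the peptide transporter, had the largest differences among the members with the exception of H2-M3, whose signal is low, and their genes lie close together on chromosome 17. In the RefSeq table of GRCm38.p6 the order is Psmb9, Tap1, Psmb8, Tap2. Psmb9 and Tap1 are read away from each other, and the stretch between their starts, chr17:34187331-34187555 of GRCm38.p6 (RefSeq), is shown on the plus strand because it lies before both genes. The 250 bases before the start of Psmb8, chr17:34197945-34198194 on the plus strand, are shown with it. Capitals mark the motifs searched for on both strands, with overlaps allowed: the palindromic element TTCNNNGAA, the interferon-type element (GAAA repeated, 2 bases apart), the antioxidant-type element TGACNNNGC and CCAAT.
Psmb9-Tap1: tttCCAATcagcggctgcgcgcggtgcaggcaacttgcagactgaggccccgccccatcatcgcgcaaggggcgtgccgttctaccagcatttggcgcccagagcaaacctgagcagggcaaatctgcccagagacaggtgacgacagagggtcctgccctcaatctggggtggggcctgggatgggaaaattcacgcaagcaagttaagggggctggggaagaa
Psmb8: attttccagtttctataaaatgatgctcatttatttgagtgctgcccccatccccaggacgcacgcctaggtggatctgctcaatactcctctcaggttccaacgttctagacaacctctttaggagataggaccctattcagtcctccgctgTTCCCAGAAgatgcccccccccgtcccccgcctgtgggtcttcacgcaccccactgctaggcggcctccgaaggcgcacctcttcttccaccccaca
The Psmb9-Tap1 stretch held 1 CCAAT and the Psmb8 stretch 1 match to TTCNNNGAA, at bases 154 to 162. Over windows from 250 bases before to 50 after each start, TTCNNNGAA was found in 9.55% of 27025 genes, the interferon-type element in 3.99%, TGACNNNGC in 14.0% and CCAAT in 41.1%. A window was found for 55 of the 73 members. Of these, 7 held the interferon-type element (B2m, Erap1, Psmb3, Psmd4, Psmd9, Psme1 and Psmg4), 4 held TTCNNNGAA (Psmb8, H2-M3, H2-DMb2 and Psmd2), 9 held TGACNNNGC and 29 held CCAAT. Such a match is a run of letters and not a measured binding site. No window was found for Tap2.

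Among the catalytic subunits of the immunoproteasome, Psmb9 and Psmb8 differed widely between the populations and Psmb10 far less. Psmb9, which encodes the subunit beta-1i, had a log2 signal of 9.90 in the Venus High and 6.79 in the Venus Low population, a linear signal of 956 against 111. Psmb8, which encodes beta-5i, had 10.90 and 8.23, a linear signal of 1912 against 300.1. Both genes were high in Venus High cells and clearly above the floor in Venus Low cells, so their differences do not rest on it. The difference was 3.11 on the log2 scale for Psmb9 (8.63-fold) and 2.67 for Psmb8 (6.37-fold). A second probe set of Psmb8 differed by 2.52, with log2 signals of 6.67 and 4.15. Psmb10, which encodes beta-2i, had 8.54 and 7.68, and its difference of 0.87 lay between the quartiles of all genes. The spread of the 3 immunoproteasome subunits among themselves, from 0.87 to 3.11, was thus wider than that of all constitutive core subunits.

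The constitutive catalytic subunits were each set against their inducible counterpart. Psmb5, the constitutive partner of Psmb8, had 10.30 and 9.20, which differ by 1.10. Psmb6, the partner of Psmb9, had 10.55 and 10.15, which differ by 0.41. Psmb7, the partner of Psmb10, had 8.24 and 7.39, which differ by 0.85. The difference of the inducible subunit exceeded that of its partner by 2.70 on the log2 scale for Psmb9 over Psmb6, by 1.57 for Psmb8 over Psmb5 and by 0.01 for Psmb10 over Psmb7. The excess was larger than the SD between probe sets for Psmb9 and Psmb8 and smaller than it for Psmb10. That SD describes the difference of a single gene, and the spread of an excess between separate genes was not measured. The pair comparisons are between differences, since levels of different probe sets cannot be compared on this array. A shift of 1 whole array cancels in them. All of these genes lay above a signal of 100 on both arrays, so the floors and signal minima could not move them either. Psmb9, Psmb6, Psmb10 and Psmb7 have 1 probe set each in the table, so only quantile normalization could move their pairs. It gave 2.69 for Psmb9 over Psmb6 and 0.00 for Psmb10 over Psmb7. For Psmb8 over Psmb5, where the choice of Psmb8 probe set also counted, the range was 1.497 to 1.59. Both Psmb8 probe sets end in _a_at or _x_at, so without such probe sets, which can bind several transcripts, that pair has no value.

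**Figure D1:**
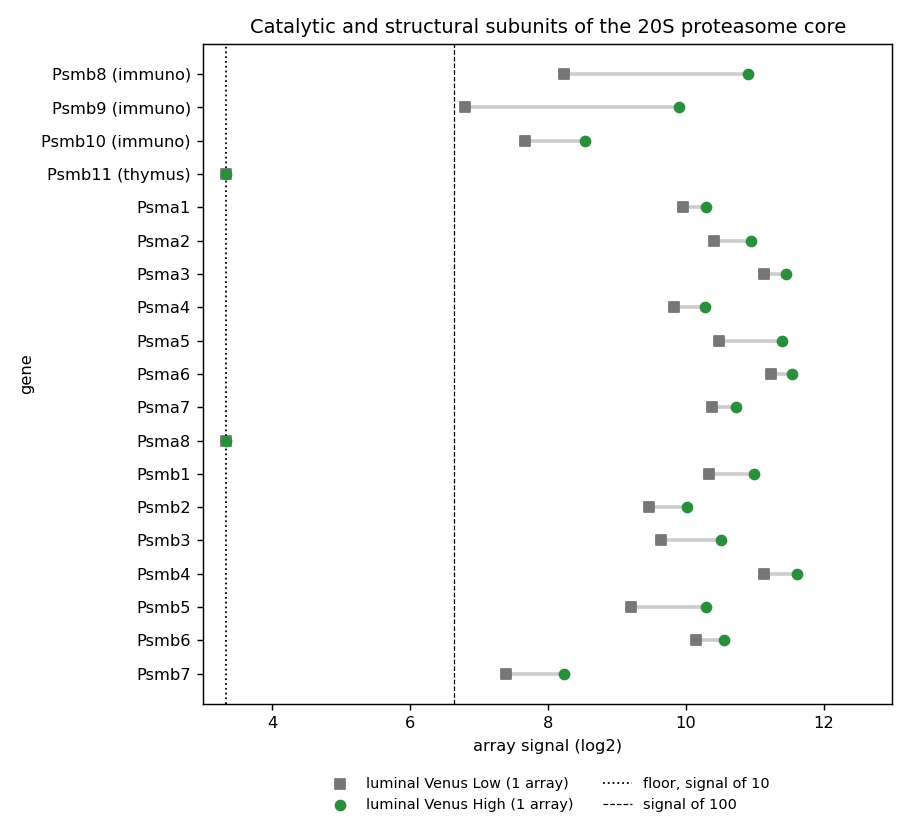
Array signal (log2, horizontal axis) of the 19 genes of the 20S core with Venus High as green circles and Venus Low as grey squares (1 array each), with the floor (dotted) and a signal of 100 (dashed). Psmb8 and Psmb9 have the widest gaps, 2.67 and 3.11, while Psmb10 has a gap like those of Psmb3, Psmb5, Psmb7 and Psma5, and Psma8 and Psmb11 lie at the floor on both arrays.

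The constitutive 20S core lay close to the median of all genes in the table. As the table holds no fallen probe sets, this does not show that the core was unchanged. Of its 15 genes, 14 reached a signal of 100, and their median difference was 0.51, next to 0.46 over all genes. Their differences ran from 0.31 (Psma6) to 1.10 (Psmb5), and 10 of the 14 lay within 1 SD between probe sets of the all-gene median. The 7 alpha subunits, which form the gate and the docking surface for the cap, had a median of 0.35, and the 7 constitutive beta subunits, the catalytic ones among them, had 0.65. Psma5 differed most among the alpha subunits, with log2 signals of 11.39 and 10.48 (0.92), and 0.54 on another probe set. Among the beta subunits without catalytic activity, Psmb3 had 10.51 and 9.64 (0.87, and 1.36 on another probe set), Psmb1 differed by 0.65, Psmb2 by 0.55 and Psmb4 by 0.48. Psma8, an alpha subunit of germ cells, and Psmb11, the catalytic subunit of thymic epithelium, stayed at the floor in both populations.

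The 19S cap also lay close to the median of all genes in the table, which again does not show that the cap was unchanged. All 20 of its genes reached a signal of 100, with a median difference of 0.45, and 10 of the 20 lay above the all-gene median. The 6 ATPases of the base, which unfold substrates, spanned the whole range: Psmc3 had log2 signals of 10.03 and 10.02, which differ by 0.00, and Psmc4 had 10.36 and 9.33, a difference of 1.03 (0.80 on another probe set). Psmc5 differed by 0.97, Psmc2 by 0.47 (0.81 on another probe set), Psmc1 by 0.43 and Psmc6 by 0.22. The 14 non-ATPase genes ran from 0.14 (Psmd8) to 0.89 (Psmd4), and Psmd4, a ubiquitin receptor, had log2 signals of 10.27 and 9.38. Psmd14, which encodes the deubiquitinase of the lid, differed by 0.62, and Psmd2 and Psmd1, the large scaffold subunits of the base, by 0.69 and 0.34. Psmd5, Psmd9 and Psmd10, which are chaperones in the assembly of the cap and are counted with it by name, differed by 0.60, 0.51 and 0.38. Proteasome genes are bright, and bright genes were also compared among themselves: of the 621 genes that reached a signal of 1000 the median difference was 0.54, against 0.48 for the 13 core genes and 0.47 for the 9 cap genes among them. For the 34 genes of the constitutive core and cap together, the median was 0.47, and 18 of the 34 lay above the all-gene median.

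**Figure D2:**
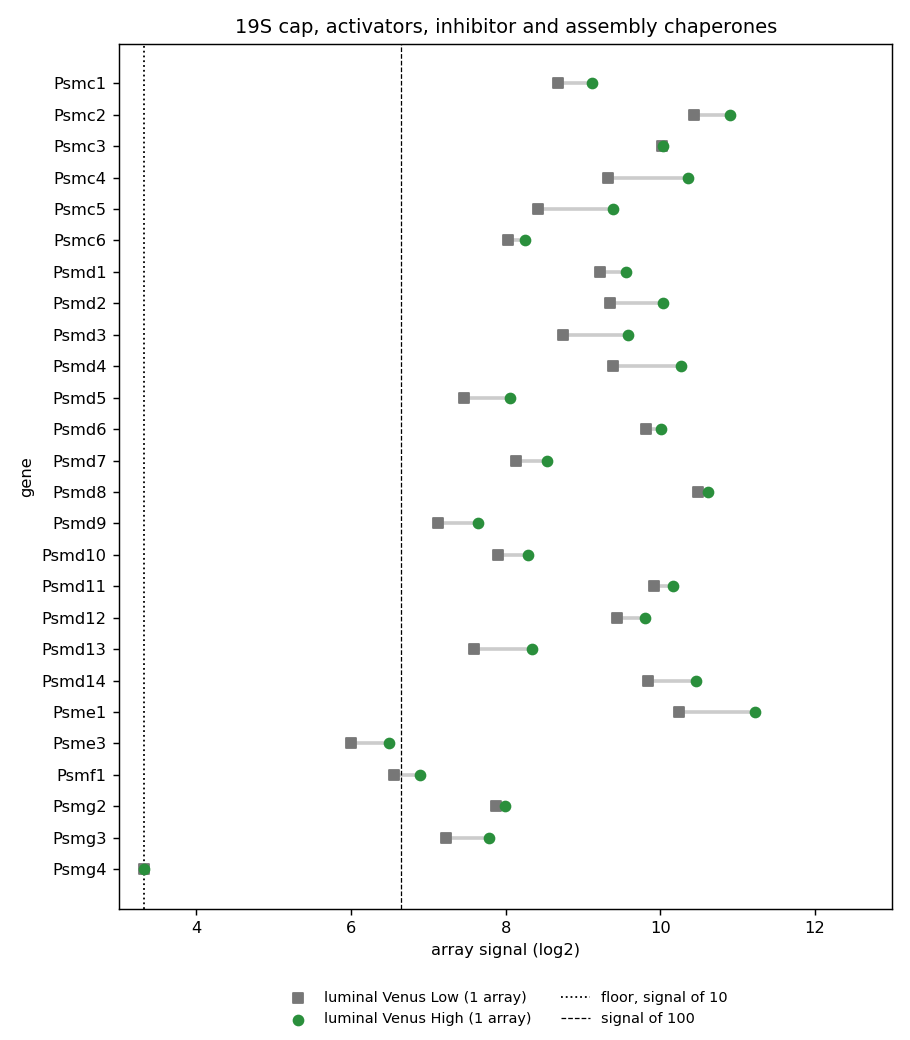
Array signal (log2, horizontal axis) of the 26 genes of the 19S cap (Psmc and Psmd), the activators and inhibitor (Psme and Psmf) and the assembly chaperones (Psmg), with Venus High as green circles and Venus Low as grey squares (1 array each). The gaps run from 0.00 (Psmc3) to 1.03 (Psmc4), and Psmg4 lies at the floor on both arrays.

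Psme1, which encodes the alpha chain of the interferon-inducible activator PA28, had log2 signals of 11.22 (Venus High) and 10.24 (Venus Low), a difference of 0.98. Psme2, its beta chain, is not analysed here because its probe set is also paired with Psme2b. Psme3, a nuclear activator, stayed below a signal of 100 (6.49 and 6.00), and Psmf1, an inhibitor of the core, differed by 0.35. Of the assembly chaperones, Psmg3 differed by 0.55. Psmg2 differed by 0.12 on the probe set with the highest mean (7.996 and 7.88) and by 1.18 on another (8.25 and 7.07), the widest disagreement among the proteasome genes, so its difference is not settled. Psmg1 and Psme4 are not analysed here.

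Counted over the members as a whole, on the values as deposited, 4-fold differences were about as frequent as over all genes. Differences of 2-fold or more were less frequent. A signal of 100 was reached by 55 of the 73 members, 5 lay between the floor and that signal, and 13 did not leave the floor in either population. Of the 55, 6 reached 100 on the Venus High array alone, so that they had to differ: H2-M3, H2-Q2, Tap1, Tapbpl, Erap1 and Psmf1. Of all 3847 genes, 813 did so. Among the genes called below, H2-M3, H2-Q2 and Tap1 belong to these 6. A 4-fold or larger difference was found for 4 of the 55 (7.27%): Psmb9, Psmb8, Tap2 and H2-M3. Over all 3847 genes the share was 8.58%, and which of the shares was the higher depended on the setting: after median centring it was 7.27% of the members and 5.74% of all genes. A 2-fold or larger difference was found for 8 of the 55 (14.5%), the others being H2-Q2, Tap1, Psmb5 and Psmc4, against 21.6% of all genes. These 4 calls were lost under both scalings, with differences after median centring of 0.62 (H2-Q2), 0.48 (Tap1), 0.44 (Psmb5) and 0.37 (Psmc4). The median of the 55 was 0.55, and 0.51 without Psmb9, Psmb8, Tap2 and H2-M3. The 4-fold calls of Psmb9 and Tap2 did not depend on the scaling. That of Psmb8 was lost after quantile normalization, where its difference was 1.99, and that of H2-M3 was lost with the floor at a signal of 32 or 100.

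**Figure D3:**
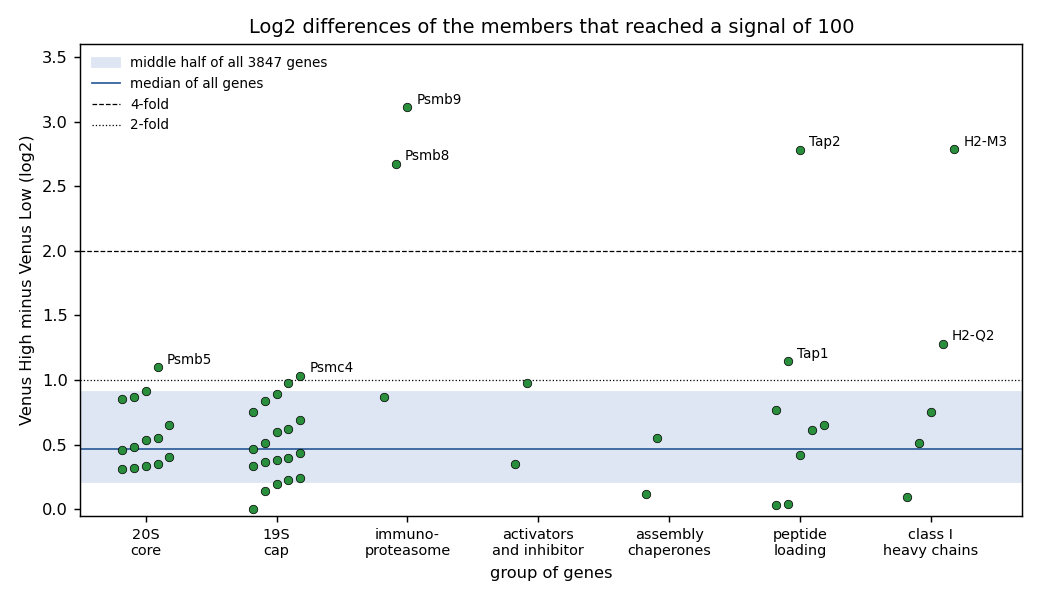
Log2 difference, Venus High minus Venus Low (vertical axis), of 54 members that reached a signal of 100, by group, with the range between the quartiles of all 3847 genes (band), their median (line), and 2-fold and 4-fold differences (dotted and dashed). H2-Ke6 (0.65), an H2 name outside these groups, is not drawn. Psmb9, Psmb8, Tap2 and H2-M3 lie above 4-fold, and most genes of the 20S core and the 19S cap lie in the band.

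In peptide loading, Tap2, a chain of the TAP transporter, had by far the largest difference of the 8 genes. Tap2 had log2 signals of 10.27 (Venus High) and 7.49 (Venus Low), a difference of 2.78 (6.87-fold). The table holds a single Tap2 probe set, whose name ends in _a_at. Tap1, its partner, had 7.53 and 6.39 on the probe set used, a difference of 1.14, or 0.89 with the floor at 100. A dimmer Tap1 probe set had 3.501 in Venus High cells against the floor, and 2 others did not leave it. The signal of Tap1 was thus low in both populations, and its size of difference is less certain than that of Tap2. B2m, which encodes beta-2-microglobulin, the light chain of class I molecules, had 12.11 and 11.46 (0.65), and 0.75 on another probe set. Erap1, the peptidase that trims peptides in the endoplasmic reticulum, differed by 0.61 (7.13 and 6.52). Tapbp, which encodes tapasin and bridges TAP and class I molecules, differed by 0.42 (10.43 and 10.01), and the related Tapbpl by 0.76 at a low signal (6.77 and 6.01; 0.13 with the floor at 100). Calr and Canx, which encode the lectin chaperones calreticulin and calnexin, were high in both populations and differed by 0.04 each (11.94 and 11.91 for Calr, 11.03 and 10.99 for Canx). After median centring both were at -0.62, farther from 0 than Tap1 at 0.48, so how they compare with Tap1 in size depends on the scaling. Over the 8 genes the median was 0.63, or 0.45 with the floor at 100, where that of all genes was 0.39.

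The classical class I heavy chains, which carry the peptides on the cell surface, were high in both populations and differed little. H2-K1 had log2 signals of 12.13 and 12.04 on the probe set used (0.09), and over its 4 probe sets with a signal of 100 or more the difference ran from 0.09 to 0.55. H2-D1 had 12.32 and 11.81 (0.51), and its 4 such probe sets differed by 0.31 to 1.07. Class I genes are polymorphic and near-identical, most of these probe sets end in _x_at, and transcripts of one gene may bind probes of another, so the values are uncertain as to gene. Among other class I genes, H2-Q2 had 7.68 and 6.398 (1.28) and H2-Q5 had 7.51 and 6.76 (0.75). H2-M3, which encodes a class Ib molecule that presents formylated peptides, had 6.92 (Venus High) and 4.13 (Venus Low), a difference of 2.79 at signals near or below 100 that shrinks to 0.27 with the floor at 100. H2-Bl stayed below a signal of 100 (5.50 and 4.36), H2-D4, H2-Q10, H2-T24 and H2-T3 did not leave the floor, and H2-L is not analysed here. Nlrc5, the transactivator of class I genes, also stayed below a signal of 100, with 5.45 and 4.01.

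The class II genes that were measured were low or undetected in both populations. None of the 8 measured genes (0 of 8) came up to a signal of 100, and 6 did not leave the floor in either population: Ciita, the master regulator of class II transcription, the chains H2-Aa, H2-Ab1, H2-Eb1 and H2-Ea, and H2-DMb2. H2-DMa, a chain of the class II peptide editor, had log2 signals of 6.25 and 4.35, and H2-Ob, a chain of its inhibitor, had 5.55 in Venus High cells against the floor. Both values lie below a signal of 100. Cd74, H2-DMb1, H2-Eb2 and H2-Oa are not analysed here, so their signal in either population is not known, and class II as a whole is not settled. CD45-positive leukocytes, which include the main class II cells, had been gated out. The table holds 16 of 22 leukocyte markers, all 16 without signal above the floor, Ptprc (CD45) and Itgax among them. Their summed linear signal was 160 on each array, which is the floor. Of 8 basal markers, 6 were in the table and at the floor, and of 10 stromal and endothelial markers, 7 were in the table with 0 at a signal of 100 and Dcn highest (6.01 and 4.89). The differences of Psmb8, Psmb9 and Tap2 thus stood beside leukocyte markers at the floor. In sorted bulk samples, a change in the share of cells that express a gene and a change in RNA per cell cannot be told apart.

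**Figure D4:**
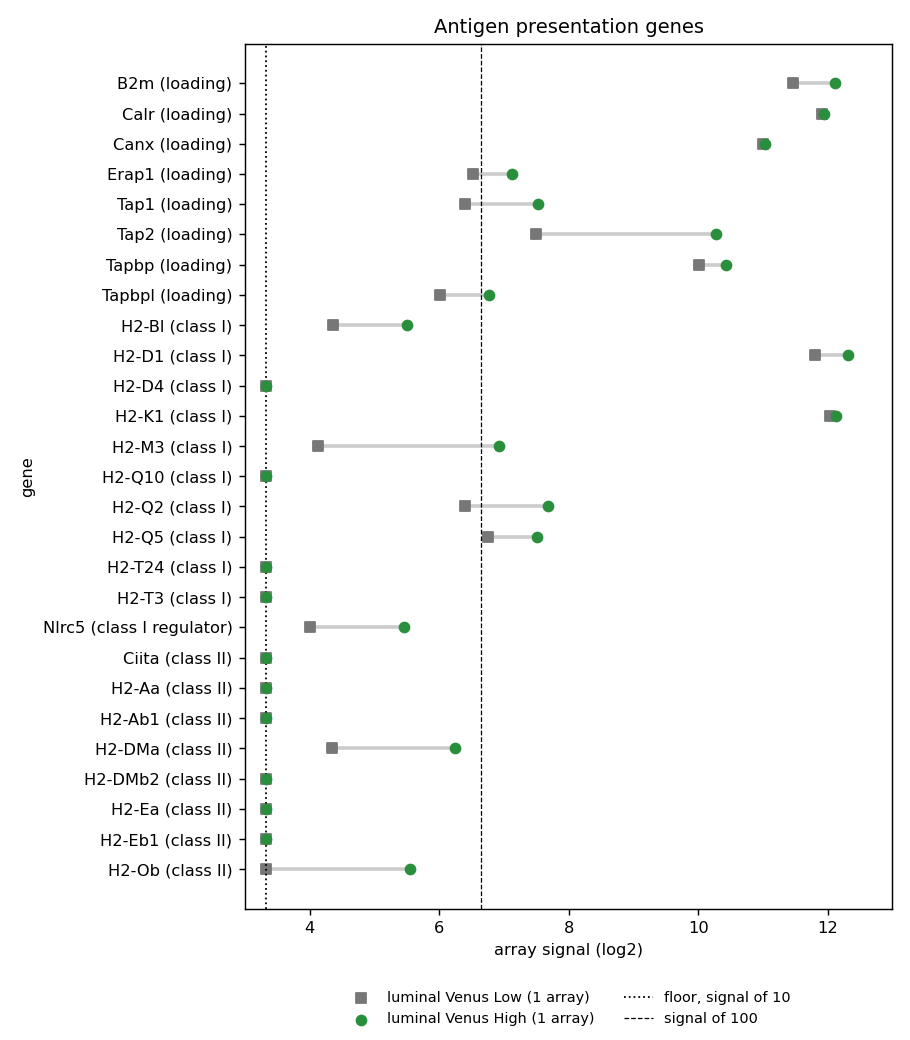
Array signal (log2, horizontal axis) of the antigen presentation genes with Venus High as green circles and Venus Low as grey squares (1 array each), with the floor (dotted) and a signal of 100 (dashed). Tap2 and H2-M3 have the widest gaps, the classical genes H2-K1 and H2-D1 lie near the right edge in both populations, and 6 class II genes lie at the floor.

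In the stretch of chromosome 17 around Psmb9, chosen with its difference known, the genes with a 2-fold or larger difference and a signal of 100 or more lay side by side. H2-M3 and H2-Q2, elsewhere on chromosome 17, are outside it. From H2-K1 to H2-Eb2 on chromosome 17, RefSeq lists 20 protein-coding genes, of which 16 were measured and 8 came up to a signal of 100. The adjacent genes Psmb9, Tap1, Psmb8 and Tap2 were the 4 of these 8 with a difference of at least 2-fold, and 3 of them, all but Tap1, differed by 4-fold or more, where the shares over all genes were 21.6% and 8.58%. Tap1 was below 2-fold after median centring (0.48) and quantile normalization (0.44). The 4 others, H2-K1, H2-Ke6, Slc39a7 and Rxrb, differed by 0.09 to 0.65. On one side of the run, H2-DMb1 is not analysed here, H2-DMb2 was at the floor and H2-DMa differed by 1.90 below a signal of 100. On the other side, H2-Ob differed by 2.23, also below that signal and against the floor, and H2-Ab1, H2-Aa and H2-Eb1 were at the floor. H2-Ke6, a steroid dehydrogenase gene with an H2 name only, had log2 signals of 7.94 and 7.29.

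**Figure D5:**
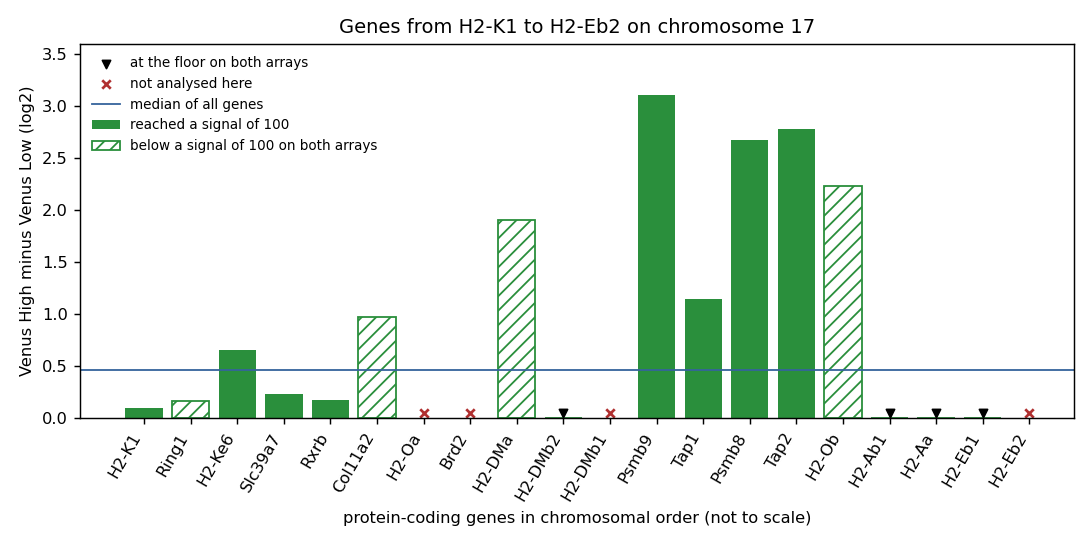
Log2 difference, Venus High minus Venus Low (vertical axis), of the 20 protein-coding genes from H2-K1 to H2-Eb2 in chromosomal order, not to scale. Filled bars reached a signal of 100 and hatched bars did not, triangles mark genes at the floor on both arrays, crosses mark genes not analysed here, and the line is the median of all genes. The tallest bars are the neighbours Psmb9, Psmb8 and Tap2, at 3.11, 2.67 and 2.78.

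Genes that act upstream of these promoters were sparsely represented. Of 13 genes from the interferon receptors to their transcription factors, 6 were in the table, 2 came up to a signal of 100 and 1 differed 2-fold or more: Jak2, a kinase of the interferon gamma receptor, with log2 signals of 9.41 and 7.70 (1.71). Irf9, a subunit of the type I interferon factor, differed by 0.25, and Stat2 (5.30 and 3.53) and Irf8 (5.27 and 3.55) stayed below a signal of 100. The rest of the list is not analysed here, so the list has no direction. Of 7 factors that bind class I and class II promoters, 2 reached a signal of 100, Nfyb and Creb1, with differences of 0.21 and 0.32. Of the other proteasome and ubiquitin genes, 8 came up to a signal of 100, and 0 of these differed 2-fold. Among them Pomp, the maturation chaperone of the core, differed by 0.95 (11.10 and 10.14), Vcp, the unfoldase that feeds the proteasome, by 0.69, and Nfe2l1, a transcription factor of proteasome genes, by 0.44. Their median was 0.44, next to 0.46 over all genes.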

How the data were processed

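RNA of each sorted population (250 ng of total RNA, integrity number above 9.4) was labelled and hybridized on 1 GeneChip Mouse Genome 430 2.0 array. The deposited values are log2 signals, which the authors normalized and centred for each sample in BRB Array. MAS5 is listed in the submitters' processing notes. What the arrays were scaled to is not given in these sources. The number of arrays limits the precision. Probe sets were named by the platform annotation (22223 with 1 symbol, 602 with several, 6513 unlisted), and only those with 1 symbol were used, which left out 12 probe sets that share a member's name with another gene. Members had 133 probe sets. A gene counted as higher when it reached a signal of 100 and differed 4-fold or 2-fold, and a median was given where at least 3 genes reached that signal. The members and lists were chosen with earlier results of these data known. All members could be named, with up to 5 genes of each other list (those with the largest differences), the markers and the chromosomal neighbours. The alternatives are in the closing section. Python 3.11.15, numpy 2.4.6, pandas 2.3.3 and matplotlib 3.10.9 were used, and the calls were tested on simulated data. The simulation put known shifts into bright genes with little noise. It checks the counting and not calls near the floor or near a threshold.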

Additional observations from a re-analysis of the deposited data

How the results depend on the processing

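With 1 array per population nothing could be left out, and no paired analysis was possible because each population has a single sample. After median centring 35 of 55 members were negative and after quantile normalization 34. The table holds no probe set that is lower in Venus High, so either scaling must put many genes below 0. These signs therefore cannot show whether the arrays had been scaled alike. Median centring gave medians of -0.15 for the 20S core, -0.21 for the 19S cap, -0.0275 for peptide loading, 0.0940 for class I heavy chains and 2.01 for the immunoproteasome, beside -0.20 over all genes, and quantile normalization gave -0.18, -0.23, -0.0304, 0.0479 and 1.99, beside -0.22. Both left 4 members at least 2-fold apart, Psmb8, Psmb9, Tap2 and H2-M3. When the suffixes _x_at, _s_at and _a_at were left out, 2 members were at least 4-fold apart, Psmb9 and H2-M3. Psmb8 and Tap2 have no other probe set in the table, and the immunoproteasome then had no median. The floor at 32 or 100 and a signal minimum of 200 each left 3, and with no minimum there were 5. The members' 4-fold share was above that of all genes after median centring (7.27% and 5.74%), with the floor at 100 (5.45% and 4.39%) and with no minimum (8.33% and 6.28%), and below it under the other 6 alternatives, by the least for quantile normalization (5.45% and 5.59%). Taking the median over probe sets gave 4. Class II genes had no median, because fewer than 3 reached a signal of 100. Of the 8 members at least 2-fold apart, 0 changed sign under these alternatives. Median centring takes off 0.66, which is less than a 2-fold difference, and the table holds no negative differences. Only quantile normalization could therefore have changed a sign.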

Other observations

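Genes around these pathways that had been listed with them mostly differed little. Of 9 genes of protein folding, translocation and peptide trimming, 5 were measured and 4 came up to a signal of 100, with a median of 0.27 and 0 at least 2-fold higher. Pdia3, the oxidoreductase of the class I loading complex, had log2 signals of 11.21 (Venus High) and 11.11 (Venus Low), a difference of 0.10, beside 0.04 for Calr and Canx, with which it works. Of 7 class I-like genes without an H2 name, Fcgrt alone reached a signal of 100. It encodes the neonatal Fc receptor, which pairs with beta-2-microglobulin, and had 7.57 and 6.53, a difference of 1.03, or 0.92 with the floor at 100. Of 6 measured genes of class II processing and costimulation, 2 reached a signal of 100, Lgmn and Marchf8, with differences of 0.34 and 0.25.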
